A study of Mus musculus with 12 samples.

Results

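The data described here are the RNA levels of 10 mouse genes of lipid handling, the peroxisome proliferator-activated receptors (PPARs) Pparg, Ppard and Ppara and 7 genes that PPARs or lipid droplets are known for, Angptl4, Fabp5, Cd36, Pdk4, Cpt1a, Plin2 and Hilpda. They were measured in oligodendroglial-enriched spinal cord of Tet1 mutant and control mice, with or without a demyelinating lesion. All 10 were found by symbol among the 54838 genes of the count tables, and all 10 were among the 31109 genes that passed the filter on low counts. Angptl4 and Fabp5 were chosen by their rise after lesion in the libraries labelled mutant, the other 8 by name, and earlier results of the same libraries were known when the list was drawn up. Among the 7 genes called higher after lesion in the mutant libraries, Angptl4 ranked 1 by size with a log2 difference of 3.0, and Fabp5 ranked 4 with 1.93. Serpina3n at 2.80 and Cxcl14 at 2.34 stood between them, and Gpx3 at 1.8 came next below Fabp5. The values of that contrast are therefore given as a description.

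PPARs are nuclear receptors that fatty acids and their derivatives bind. They pair with a retinoid X receptor on DNA, at a direct repeat of the hexamer AGGTCA, and switch on genes for fatty acid uptake, oxidation and storage. Lipid droplets are the stores of neutral lipid in a cell, held under a coat of perilipins, and myelin debris is a known source of such lipid in phagocytes of a demyelinated lesion.

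Controls carried Olig1+/+;Tet1fl/fl and mutants, Tet1 cKO in the labels, Olig1cre/+;Tet1fl/fl, so that floxed Tet1 alleles were present in every mouse and the cre, expressed from the Olig1 locus, in the mutants only. The mutants thus have cre in 1 of their Olig1 alleles, which the controls do not. The mice were at P60. Lesioned tissue was taken at 4 days after lysolecithin (LPC) was injected into the ventrolateral white matter (4dpl), and unlesioned tissue came from the other side of the cord, 3 libraries in each of the 4 groups. The tissue was dissociated and enriched on a Percoll gradient without sorting, so a count sums over all cells that the gradient kept, and in such bulk RNA fewer cells of a type and less RNA per cell cannot be told apart. Levels are given as CPM, the count of a gene scaled to the size of its library after TMM normalisation. Differences are log2 differences between group means from 1 edgeR fit to all 12 libraries, and a gene was called at p below 0.01 with an adjusted p below 0.05.

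Library totals lay between 34805086 and 67251544 counts. Tet1 itself did not separate the genotypes, at 14.9 to 18.3 CPM in control and 9.94 to 16.4 CPM in mutant unlesioned libraries, and at 11.7 to 12.5 and 10.9 to 21.5 CPM at 4dpl. The gene-level count covers the exons outside the deletion and cells without cre, so the labels alone give the genotype below. The 10 oligodendrocyte markers summed to between 14938 and 35274 CPM in 11 libraries and to 71558 CPM in mutant 4dpl replicate 3. Markers of blood cells were high in all libraries, neutrophil markers summing to between 18081 and 101036 CPM and erythroid markers to between 12099.6 and 99957 CPM. Macrophage markers summed to between 6744 and 25929.8 CPM and endothelial markers to no more than 43.4 CPM. No marker of the 12 cell type lists was at 0 in all libraries of a group.

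Per kilobase of exon, the receptors and Angptl4 were at the low end of the 10 genes and Fabp5 and Plin2 at the high end. In control unlesioned tissue Plin2 was at 67.1 ± 41.8 CPM per kb (SD, n = 3) and Fabp5 at 67.0 ± 22.5 CPM per kb. Hilpda followed at 22.4 ± 16.3, Cpt1a at 12.3 ± 8.05 and Cd36 at 12 ± 7.93 CPM per kb. Pdk4, Angptl4, Ppard and Pparg lay between 1.91 and 0.727 CPM per kb, and Ppara was lowest at 0.233 ± 0.16. At 4dpl in the control, Fabp5 was at 256 ± 67.4 and Plin2 at 244 ± 82.7 CPM per kb. The exonic length of Fabp5, 3567 bases, includes an annotated transcript with a retained intron, whereas its coding transcript has 987 bases, so its level per kilobase is a low estimate. No exon of the 10 genes overlaps an exon of another gene in the annotation of the files.

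**Figure D1:**
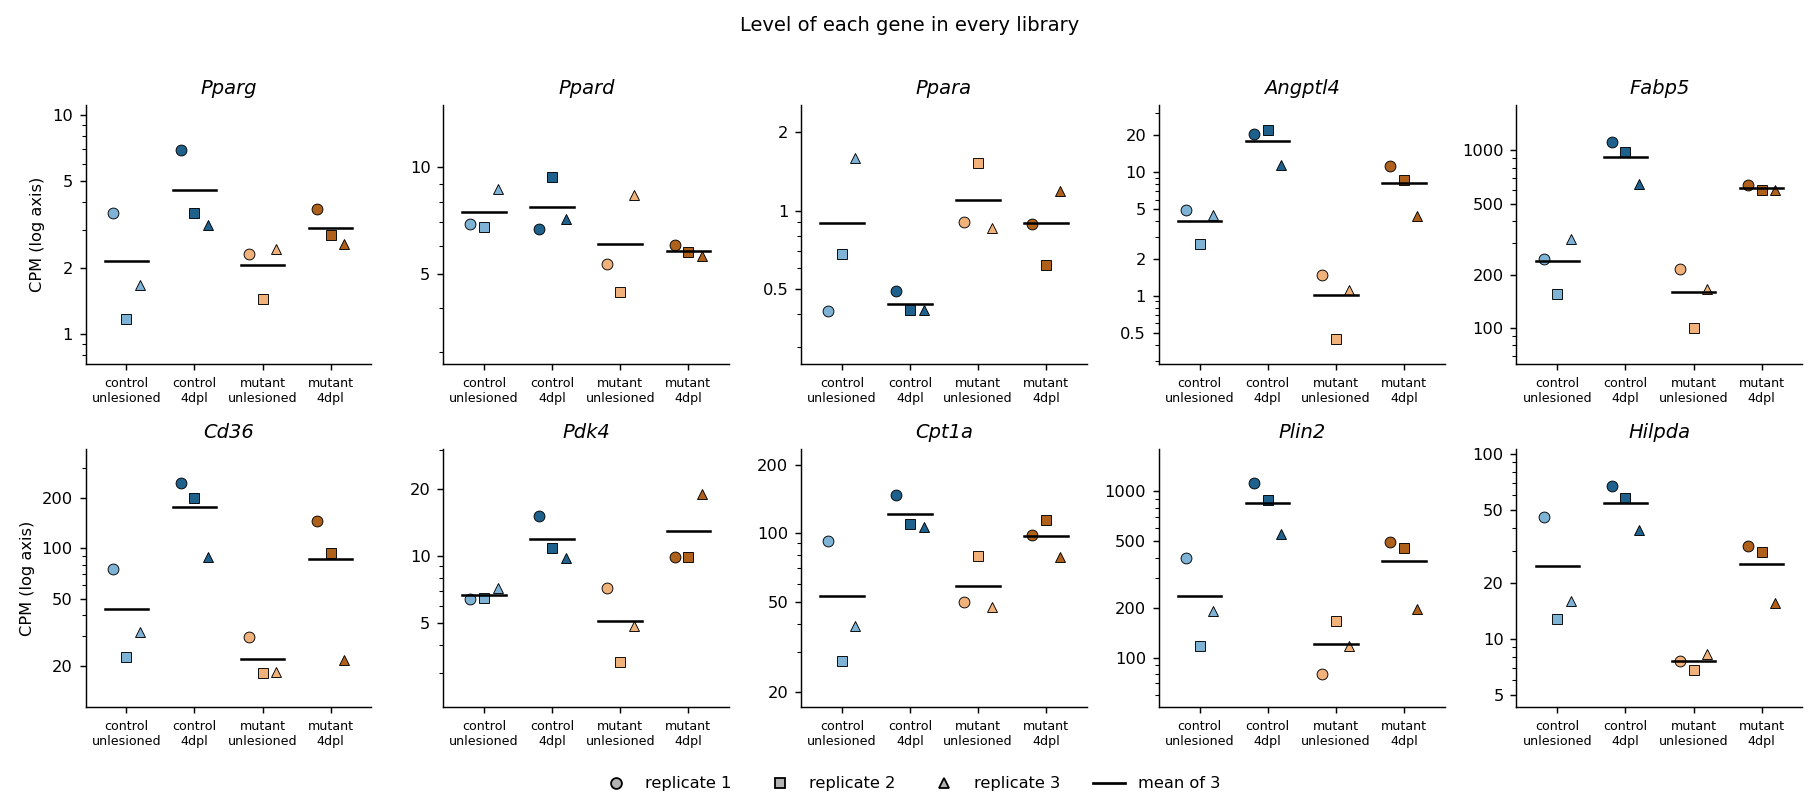
CPM of each of the 10 genes (log axis, scaled per panel) in the 12 libraries, by group; circles, squares and triangles are replicates 1, 2 and 3 and the black line is the mean of 3. Fabp5, Plin2 and Angptl4 are highest in the control 4dpl libraries, Hilpda is lowest in the mutant unlesioned libraries at 6.83 to 8.27 CPM, and Ppard lies between 4.44 and 9.38 CPM in all libraries.

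In the edgeR fit to all 12 libraries none of the 3 receptors was called different in any comparison, and all were low per kilobase. Pparg, the receptor that drives lipid storage and is prominent in fat cells and macrophages, lies on chromosome 6 of GRCm38 from 115360951 to 115490399. It was at 3.59, 1.17 and 1.68 CPM in control unlesioned and 6.92, 3.57 and 3.16 CPM in control 4dpl replicates 1, 2 and 3. Replicate 1 was the highest of each control group, and the groups overlapped. The control difference was 1.08 (SE 0.45, edgeR's quasi-likelihood test, Benjamini-Hochberg adjusted p = 0.112). It was 0.67 without control 4dpl replicate 1 and 1.70 without control unlesioned replicate 1. Pparg was called in the latter fit and with limma voom. Mutant libraries had Pparg at 2.32, 1.44 and 2.45 CPM unlesioned and 3.73, 2.82 and 2.57 CPM at 4dpl, and the groups did not overlap.

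Ppard, the receptor found in most tissues, lies on chromosome 17 from 28232700 to 28301474. It was at 6.93, 6.80 and 8.68 CPM in control unlesioned, 6.70, 9.38 and 7.14 CPM in control 4dpl, 5.34, 4.44 and 8.38 CPM in mutant unlesioned and 6.05, 5.77 and 5.63 CPM in mutant 4dpl libraries. The mutant 4dpl libraries were all below the control libraries, unlesioned and 4dpl, and all other pairs of groups overlapped. The control difference after lesion was 0.05 (95% confidence interval -0.56 to 0.66), and its sign turned under other settings, so no direction is given. Ppara, best known for fatty acid oxidation in liver, lies on chromosome 15 from 85734983 to 85802819 and had between 18 and 81 counts per library. It was at 0.413, 0.680 and 1.58 CPM in control unlesioned and 0.490, 0.416 and 0.415 CPM in control 4dpl libraries. Replicate 3 was the high value of the unlesioned group. The difference was -1.01 (SE 0.54, edgeR's quasi-likelihood test, Benjamini-Hochberg adjusted p = 0.192), and it was -0.29 with that library left out. In the mutant libraries Ppara was at 0.903, 1.52 and 0.861 CPM unlesioned and 0.887, 0.617 and 1.19 CPM at 4dpl, which overlapped.

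Angptl4, a secreted inhibitor of lipoprotein lipase and a PPAR target in many tissues, lies on the minus strand of chromosome 17 from 33773750 to 33781830. In control unlesioned tissue it was at 4.92, 2.61 and 4.49 CPM and in control 4dpl tissue at 20.2, 21.7 and 11.5 CPM. Each 4dpl library stood above each unlesioned one, and the rise was 2.15 on the log2 scale (SE 0.45, edgeR's quasi-likelihood test, Benjamini-Hochberg adjusted p = 0.0264). The control values are not those that chose the gene, although the 12 libraries shared 1 estimate of the spread. Angptl4 in the mutant libraries was at 1.47, 0.450 and 1.11 CPM unlesioned, from 80, 24 and 49 counts, and at 11.2, 8.67 and 4.46 CPM at 4dpl. These unlesioned mutant libraries were the lowest of the 12, and the mutant 4dpl libraries overlapped the control unlesioned ones.

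Fabp5, a small fatty acid carrier of the cytosol that can pass ligand to PPARs, lies on chromosome 3 from 10012548 to 10016607. It was at 244, 156 and 316 CPM in control unlesioned and at 1120.1, 974 and 650.4 CPM in control 4dpl libraries. The groups did not overlap, and the rise was 1.94 (SE 0.34, edgeR's quasi-likelihood test, Benjamini-Hochberg adjusted p = 0.0244). The mutant values were 215, 101 and 166 CPM unlesioned and 634, 598 and 601 CPM at 4dpl. The mutant 4dpl libraries lay close together, with an SD of 20.2 CPM against 240.4 CPM in the control, and below all 3 control 4dpl libraries.

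Fabp5 has near-identical copies in the genome that could share its reads. In the GENCODE M21 transcripts, 5 processed pseudogenes matched the coding transcript over at least 100 bases at 90% identity or more, and together they held 3084 counts against 293014 for Fabp5, or 1.05%. Of these, 2330 were in Gm6166, on chromosome 9 from 57483963 to 57484371, which matched over 409 bases at 98.289% identity and had 42 to 543 counts per library. Its count was between 0.597% and 0.952% of that of Fabp5 in every library, so it followed Fabp5 across the groups. The 120 bases below are transcript bases 351 to 470 of Fabp5, where they are coding, and 261 to 380 of Gm6166. They hold 2 differing bases, in capitals, of the 5 mismatched bases over the whole match.
Fabp5: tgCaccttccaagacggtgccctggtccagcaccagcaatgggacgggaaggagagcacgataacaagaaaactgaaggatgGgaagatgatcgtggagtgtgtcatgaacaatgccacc
Gm6166: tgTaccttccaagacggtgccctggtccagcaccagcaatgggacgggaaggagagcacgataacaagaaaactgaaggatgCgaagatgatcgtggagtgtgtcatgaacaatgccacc
The paper describes counting only uniquely aligned reads, so a read that matches both genes equally well would be counted for neither. How reads were assigned between Fabp5 and its copies was not tested. Of the other members, Plin2 had 1 such copy, Gm12551 with 124 counts or 0.0507% of those of Plin2, and the remaining 8 had none.

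Cd36, a membrane receptor for fatty acids and oxidised lipoprotein found on macrophages and microvessels, lies on the minus strand of chromosome 5 from 17781690 to 17888801. It was at 75.7, 22.5 and 31.5 CPM in control unlesioned and at 245, 198 and 88.7 CPM in control 4dpl libraries. Replicate 1 was highest in each group and the groups stayed apart. The rise was 2.04 (SE 0.60, edgeR's quasi-likelihood test, Benjamini-Hochberg adjusted p = 0.0473). In the mutant libraries it was at 29.6, 18.0 and 18.4 CPM unlesioned and 146, 93.2 and 21.6 CPM at 4dpl, where replicate 3 fell within the unlesioned range.

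Cpt1a, which loads long-chain fatty acids for entry into mitochondria, lies on chromosome 19 from 3323301 to 3385732. It was at 92.3, 27.4 and 38.8 CPM in control unlesioned and 147, 110.1 and 106 CPM in control 4dpl libraries. The groups did not overlap, yet the difference of 1.2 (SE 0.38) was not called (edgeR's quasi-likelihood test, Benjamini-Hochberg adjusted p = 0.0562). It was 1.90 without control unlesioned replicate 1, and Cpt1a was then called. DESeq2 and edgeR with legacy set to FALSE also called Cpt1a, but RLE scaling and a fit of the compared groups alone did not. The mutant libraries overlapped, at 49.5, 79.2 and 47.2 CPM unlesioned and 98.5, 114 and 78.6 CPM at 4dpl. Pdk4, a kinase that shuts down pyruvate dehydrogenase and so spares glucose, lies on the minus strand of chromosome 6 from 5483351 to 5496309. It was at 6.42, 6.46 and 7.19 CPM in control unlesioned and 15.1, 10.9 and 9.81 CPM in control 4dpl libraries, which were apart. The difference of 0.83 (SE 0.33) was not called (edgeR's quasi-likelihood test, Benjamini-Hochberg adjusted p = 0.103). In the mutant libraries Pdk4 was at 7.20, 3.36 and 4.85 CPM unlesioned and 9.94, 9.85 and 18.9 CPM at 4dpl. The groups were apart, and mutant 4dpl replicate 3 was the highest of the 12 libraries for Pdk4 and the lowest of the 4dpl libraries for Cd36, Plin2 and Hilpda.

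Plin2, the perilipin that coats lipid droplets outside fat tissue, lies on the minus strand of chromosome 4 from 86648386 to 86670060. It was at 399.8, 117 and 191 CPM in control unlesioned and at 1129.6, 887 and 551 CPM in control 4dpl libraries. All control 4dpl libraries were above the unlesioned ones, and the rise was 1.86 (SE 0.48, edgeR's quasi-likelihood test, Benjamini-Hochberg adjusted p = 0.0368). Plin2 in the mutant libraries was at 80.3, 166 and 118 CPM unlesioned and 497, 457 and 196 CPM at 4dpl. The 3 mutant 4dpl libraries were all below the 3 control 4dpl libraries.

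Hilpda, a small droplet protein that inhibits the triglyceride lipase Pnpla2 and is induced by hypoxia and by PPARs, lies on chromosome 6 from 29272488 to 29275446. It was at 45.4, 12.7 and 16.1 CPM in control unlesioned and 66.8, 57.9 and 38.7 CPM in control 4dpl libraries, where control unlesioned replicate 1 fell within the 4dpl range. The difference of 1.14 (SE 0.41) was not called (edgeR's quasi-likelihood test, Benjamini-Hochberg adjusted p = 0.0808). With that library left out it was 1.95, and Hilpda was called. In the mutant libraries Hilpda was at 7.59, 6.83 and 8.27 CPM unlesioned, below all other groups, and at 31.6, 29.4 and 15.6 CPM at 4dpl.

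Plin2, Cd36 and Hilpda varied alongside each other over the 12 libraries, with a Pearson r of log2 CPM of 0.94 for Plin2 and Hilpda, 0.93 for Plin2 and Cd36 and 0.92 for Cd36 and Hilpda. After the group means were subtracted r was 0.87, 0.79 and 0.87, over libraries that also differ in depth and cell content. RefSeq promoter windows of GRCm38.p6, 250 bases before to 50 bases after a start, were at hand for 8 of the 10 members (11 windows, 300 bases each), and not for Angptl4 and Fabp5. Both strands were searched for the PPAR element DR1, 2 copies of AGGTCA with 1 base between them and up to 2 mismatches. A DR1 match was present in the window of Plin2 and in that of Cd36, 2 of 11 member windows against 3.86% of all 32851 windows. Each match lies on the strand opposite to the gene and has 2 mismatches. The windows are printed 5′ to 3′ on the strand of the gene with the DR1 match in capitals, chr4:86670010-86670309 (minus strand) for Plin2 and chr5:17835847-17836146 (minus strand) for Cd36.
Plin2: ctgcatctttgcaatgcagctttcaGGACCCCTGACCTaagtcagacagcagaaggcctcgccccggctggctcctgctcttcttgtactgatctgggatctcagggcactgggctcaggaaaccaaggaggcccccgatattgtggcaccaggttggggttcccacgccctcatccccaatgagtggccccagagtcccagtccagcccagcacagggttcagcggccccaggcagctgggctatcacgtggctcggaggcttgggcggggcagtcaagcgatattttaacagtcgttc
Cd36: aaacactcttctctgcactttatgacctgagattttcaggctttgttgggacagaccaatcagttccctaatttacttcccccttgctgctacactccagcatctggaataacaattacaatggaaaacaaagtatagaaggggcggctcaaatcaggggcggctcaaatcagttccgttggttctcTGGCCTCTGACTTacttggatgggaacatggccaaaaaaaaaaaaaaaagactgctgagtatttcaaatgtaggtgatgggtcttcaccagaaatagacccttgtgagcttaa
The match in Plin2 spans bases 26 to 38 of the window and that in Cd36 bases 188 to 200. In Plin2 it contains an exact AGGTCA, which was found in 5 of the 11 member windows and in 16.3% of all windows. A match is a description of letters, and no binding was measured here.

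Hilpda has 2 windows, and its 3 matches to the core of hypoxia response elements (CGTG after A or G, either strand) are shown in capitals in the second, chr6:29272376-29272675 (plus strand).
Hilpda: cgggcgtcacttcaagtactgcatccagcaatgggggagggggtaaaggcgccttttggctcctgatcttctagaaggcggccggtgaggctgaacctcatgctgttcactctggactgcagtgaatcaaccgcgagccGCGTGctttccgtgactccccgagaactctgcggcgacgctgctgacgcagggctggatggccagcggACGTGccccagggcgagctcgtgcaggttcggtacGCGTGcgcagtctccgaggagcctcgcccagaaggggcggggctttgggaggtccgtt
This short core was found in 7 of the 11 member windows and in 43.8% of all windows, so its presence is common.

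In the control, 4 of the 10 members were called higher at 4dpl (Angptl4, Fabp5, Plin2 and Cd36) and none lower by the quasi-likelihood test of edgeR after Benjamini-Hochberg adjustment. Over all 31109 genes tested, 5.12% were called higher and 5.01% lower. The median log2 difference of the 10 members was 1.17 against -0.36 over all genes. With at least 10 counts in every library these medians were 0.95 and -0.05. Unlesioned libraries of both genotypes had a count for 40023 to 44516 genes and 4dpl libraries for 33964 to 37516. The part of that split in the medians was not tested. For 6 members every 4dpl library was above every unlesioned one (the 4 called, Cpt1a and Pdk4), as for 16.5% of all genes. The calls rested on few libraries. Without control unlesioned replicate 2, control 4dpl replicate 1 or control 4dpl replicate 2, none of the 10 was called, and over all genes 1, 4 and 2 were. Without control unlesioned replicate 3 only Fabp5 was called, without mutant unlesioned replicate 3 only Angptl4 and Fabp5, and Cd36 was lost without mutant unlesioned replicate 2 or mutant 4dpl replicate 2. Without control unlesioned replicate 1, the library with high Plin2, Cd36, Cpt1a, Hilpda and Pparg in its group, 7 of the 10 were called. Cpt1a, Hilpda and Pparg were the members added. Each of the 4 rises kept its direction in every one of these fits, the lowest value being 1.94 for Angptl4, 1.72 for Fabp5, 1.55 for Plin2 and 1.74 for Cd36.

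Cell type markers moved with the lesion in the control. Oligodendrocyte markers summed to 17442 to 21494 CPM unlesioned and 24446 to 35274 CPM at 4dpl, with 1 of 10 called higher (Mobp). Of 6 pericyte and fibroblast markers 1 was called higher, Col1a1 (log2 difference 2.54, SE 0.43). Macrophage markers summed to 9609 to 17744 CPM unlesioned and 17222 to 25198 CPM at 4dpl, with 4 of 9 called higher, among them Cd68, a lysosomal protein of phagocytes (log2 difference 2.17, SE 0.39). Microglial markers summed to 1583 to 3351 and 4902 to 8819 CPM, with 2 of 7 called higher. Oligodendrocyte progenitor markers summed to 89.0 to 112 CPM unlesioned and 163 to 339.9 CPM at 4dpl, with 3 of 6 called higher (Pdgfra, Cspg4 and Gpr17). Olig2 of the same list was lower at 4dpl without overlap (log2 difference -1.12, SE 0.50) and was not called. Astrocyte markers summed to 158 to 196 and 307 to 572 CPM, with 2 of 6 called higher (Gfap and Gja1). Neither list overlapped between the control groups in its sum. Neutrophil markers summed to between 40784 and 86817 CPM unlesioned and between 24714 and 29885 CPM at 4dpl. Erythroid markers summed to between 34187 and 99957 CPM unlesioned and between 12099.6 and 40863 CPM at 4dpl. None of these 6 neutrophil and 5 erythroid markers was called. No endothelial marker was called among 6. Which cells carried the members' RNA, and the part of these shifts in their rise, was not tested.

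In the libraries labelled mutant, the contrast that chose Angptl4 and Fabp5, these 2 members were called. Over all genes 0.0225% were called higher, and nothing is read from the members' count, since the same values chose them. Both calls were lost without mutant unlesioned replicate 2 or 3, when 1 of the 3 mutant 4dpl libraries was left out, whichever it was, or without control 4dpl replicate 2, and Fabp5 alone was lost without control unlesioned replicate 3 or control 4dpl replicate 1. Neither was called with a replicate block. The mutant differences after lesion were 3.0 for Angptl4 (SE 0.47), 1.93 for Fabp5 (SE 0.34), 1.98 for Cd36 (SE 0.60), 1.76 for Hilpda (SE 0.42), 1.66 for Plin2 (SE 0.47) and 1.33 for Pdk4 (SE 0.34). Those of Cpt1a, Pparg, Ppard and Ppara were 0.73, 0.55, -0.06 and -0.28, and that of Ppard changed sign under other settings. For 6 members, the chosen Angptl4 and Fabp5 and Plin2, Pdk4, Hilpda and Pparg, the mutant 4dpl libraries were all above the mutant unlesioned ones, and over all genes this held for 18.8%. The same values chose Angptl4 and Fabp5, so the count of 6 is given as a description. Cell type markers differed here too, with none called. All 10 oligodendrocyte markers had a difference above 0 (median 0.96), as had all 7 microglial markers (median 0.72) and 7 of 9 macrophage markers (median 0.57). The macrophage markers Ms4a7 at 3.48, Pf4 at 2.64 and Cd68 at 1.77 did not overlap between mutant unlesioned and 4dpl libraries. Their part in the members' values was not tested.

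**Figure D2:**
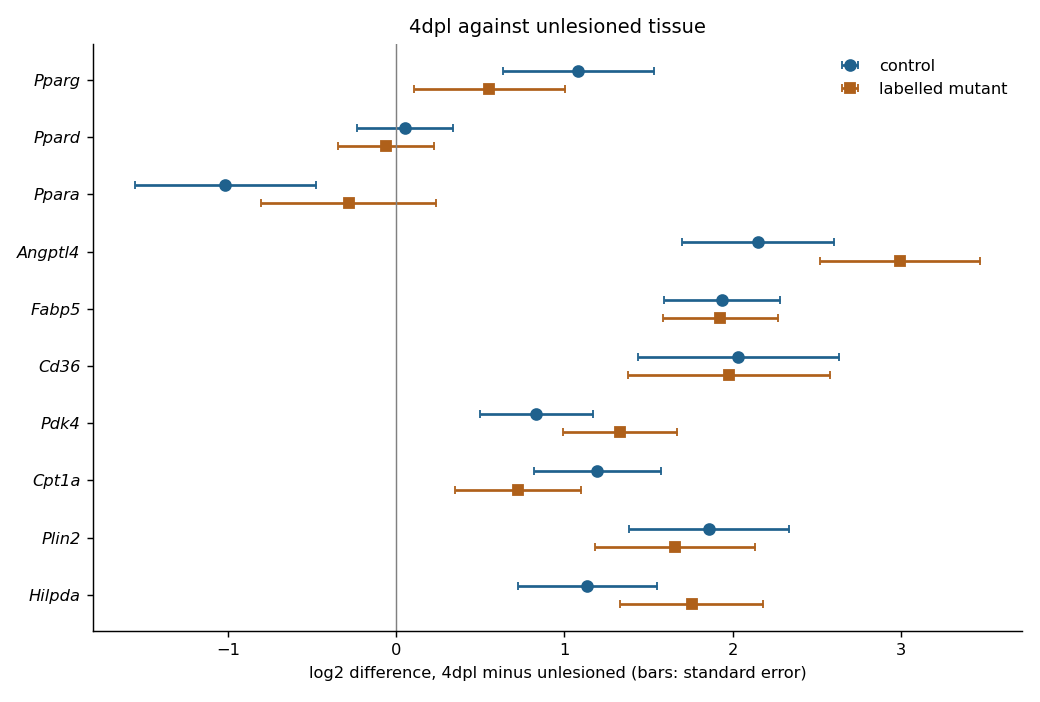
Log2 difference between 4dpl and unlesioned tissue (x axis) for the 10 genes in the control (circles) and in the libraries labelled mutant (squares), with standard errors from the edgeR fit. Angptl4 and Fabp5 were selected on the mutant values; the bars of the 2 genotypes overlap for all 10 genes, and those of the receptor Ppard cross 0 in both.

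The change after lesion was not called different between the genotypes for any gene, 0% of the 31109 tested, by the quasi-likelihood test of edgeR after Benjamini-Hochberg adjustment. At an unadjusted p below 0.05, 1184 genes and none of the 10 members differed. DESeq2, edgeR with legacy set to FALSE and limma voom each called 0 genes. Expressed as mutant change minus control change, the members lay between -0.53 (Pparg, 95% confidence interval -1.88 to 0.82) and 0.85 (Angptl4, SE 0.62, no test). For Hilpda the value was 0.62 (-0.63 to 1.86), for Pdk4 0.49 (-0.51 to 1.5), for Plin2 -0.20 (-1.6 to 1.2) and for Cd36 -0.05 (-1.81 to 1.70). Each of these intervals holds a difference of more than 1 log2 unit in at least 1 direction, so they do not show that the genotypes responded alike. Hilpda turned to -0.16 without control unlesioned replicate 1, Cd36 to 0.41 without mutant 4dpl replicate 3, and Plin2 also changed sign there.

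Between the genotypes no member was called, although most had lower means in the libraries labelled mutant, in unlesioned tissue and at 4dpl. Of the 8 members that the mutant values did not choose, Hilpda had the smallest p in both states. In unlesioned tissue its mean was 7.56 ± 0.721 CPM in the mutant and 24.7 ± 18.0 CPM in the control (SD, n = 3), and the libraries did not overlap, with 12.7 CPM as the lowest control value and 8.27 CPM as the highest mutant value. The difference was -1.71 (SE 0.42, edgeR's quasi-likelihood test, Benjamini-Hochberg adjusted p = 0.693). At 4dpl its means were 25.6 ± 8.70 and 54.5 ± 14.4 CPM (SD, n = 3), again without overlap, and the difference was -1.09 (SE 0.41, edgeR's quasi-likelihood test, Benjamini-Hochberg adjusted p = 0.538). Without control unlesioned replicate 1 the unlesioned difference was -0.93, and without mutant 4dpl replicate 3 the difference at 4dpl was -0.84.

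At 4dpl Plin2 was at 383 ± 163 CPM in the mutant and 856 ± 290.4 CPM in the control (SD, n = 3), a difference of -1.16 (SE 0.47, edgeR's quasi-likelihood test, Benjamini-Hochberg adjusted p = 0.59). Unlesioned the difference was -0.96 (95% confidence interval -1.96 to 0.04), and the libraries overlapped. For Cd36 the differences were -0.98 (-2.23 to 0.28) unlesioned and -1.03 (-2.28 to 0.22) at 4dpl, with overlap in both. They came to -0.29 for Cd36 and -0.34 for Plin2 unlesioned without control unlesioned replicate 1, and to -0.57 and -0.85 at 4dpl without mutant 4dpl replicate 3. Cpt1a, Pdk4 and Pparg showed no shared direction, with differences between -0.58 and 0.15 over both states. Angptl4 differed by -1.99 unlesioned (SE 0.46) and -1.14 at 4dpl (SE 0.44) without overlap in either state, and Fabp5 by -0.57 (SE 0.33) and -0.58 (SE 0.33). These are given with no test, since the mutant libraries compared here are those that chose both genes.

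**Figure D3:**
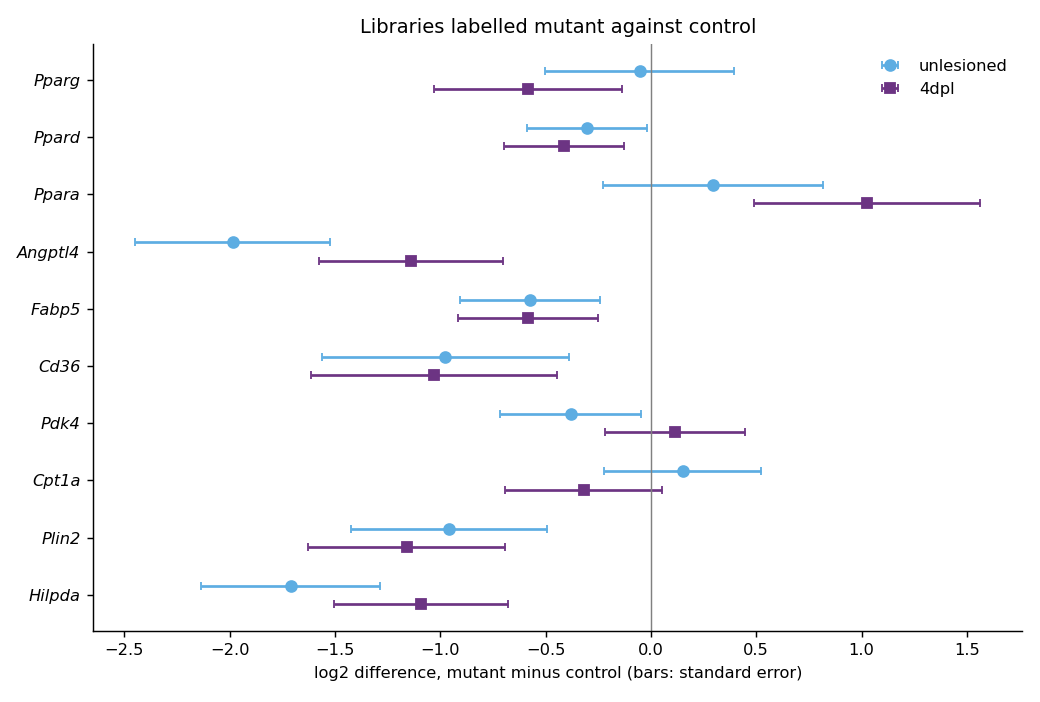
Log2 difference between libraries labelled mutant and control (x axis) in unlesioned tissue (circles) and at 4dpl (squares) for the 10 genes, with standard errors from the edgeR fit. Of the 10 genes, 8 lie below 0 in each state, Pdk4 only in unlesioned tissue and Cpt1a only at 4dpl. The mutant-chosen Angptl4 and Fabp5 lie below 0 in both states, and Hilpda is at -1.71 unlesioned and -1.09 at 4dpl.

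Of the 8 members that the mutant values did not choose, 6 had a difference below 0 in each state, where 48.2% and 45.9% of all genes did. The 6 were not the same genes. Pdk4 was at -0.38 unlesioned and 0.11 at 4dpl, and Cpt1a at 0.15 and -0.32. The medians of the 8 members were -0.34 unlesioned and -0.50 at 4dpl, against 0.02 and 0.05 over all genes. No member was called in either comparison, and 0% of all genes were, by the quasi-likelihood test of edgeR after Benjamini-Hochberg adjustment. Unadjusted, 1624 genes unlesioned and 2153 at 4dpl had a p below 0.05. DESeq2 called 45 and 227 genes, edgeR with legacy set to FALSE 1 and 0, and limma voom 0 and 34. Of the members, DESeq2 called 2 in unlesioned tissue, Hilpda and the mutant-chosen Angptl4, and none at 4dpl, and the other tools called none. Nothing is read from the call of Angptl4, since the mutant values compared here are among those that chose it. Pparg, at -0.05 unlesioned, and Pdk4, at 0.11 at 4dpl, changed sign under other settings. In unlesioned tissue all mutant libraries were below all control libraries for 1 of these 8, Hilpda, against 6.28% of all genes. At 4dpl this held for 3 of the 8, Plin2, Hilpda and Ppard, against 5.44%, and Ppara had all its mutant libraries above, at a difference of 1.03 (SE 0.54, edgeR's quasi-likelihood test, Benjamini-Hochberg adjusted p = 0.783). In both states it held for 1 of the 8, Hilpda, against 1.02%. The chosen Angptl4 in both states and Fabp5 at 4dpl also had all mutant libraries below, which is given as a description.

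Markers of other cells differed between the genotypes too. At 4dpl the 9 macrophage markers had a median log2 difference of -0.72 between mutant and control, 8 of them below 0, with sums of 11276 to 25929.8 and 17222 to 25198 CPM. The 10 oligodendrocyte markers had a median of 0.67, all above 0, with 71558 CPM in mutant replicate 3. At 4dpl 5 of 6 neutrophil markers were above 0 (median 0.79). In unlesioned tissue the macrophage median was -0.31 and that of the 5 erythroid markers -1.37. Other lists went the other way there. All 7 microglial markers were above 0 (median 0.44), as were all 6 oligodendrocyte progenitor markers (0.37) and all 4 ependymal markers (1.23). None of these markers was called, and their part in the members' differences was not tested.

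The neighbouring genes of the pathway were followed in 8 lists with 119 tested genes, and 25 of these were called higher and 1 lower at 4dpl in the control, where 5.12% of all genes were called higher and 5.01% lower. Of the 15 PPAR partners and coregulators, 2 were called higher. Rxra, the retinoid X receptor that PPARs pair with, went from 14 ± 2.91 to 29.3 ± 0.936 CPM (SD, n = 3), a difference of 1.07 (SE 0.21). Pprc1, a coactivator of mitochondrial genes, went from 24.6 ± 8.22 to 51.0 ± 5.47 CPM (SD, n = 3). The list median was 0.29. Ncor1, a corepressor, was at 134 ± 24.3 and 81.5 ± 6.02 CPM (SD, n = 3) and was not called.

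Fatty acid oxidation had 8 of 23 tested genes called higher and none lower in the control, with a median of 0.46. The 4 with the smallest p were Acadm, Hadha, Ehhadh and Etfdh. Ehhadh, an enzyme of peroxisomal oxidation, rose by 1.66 (SE 0.44), Etfdh, which feeds electrons from oxidation into the respiratory chain, by 0.94, and Hadha, a subunit of the mitochondrial trifunctional protein, by 0.80. Acadm, the medium-chain dehydrogenase, went from 30.2 ± 4.30 to 54.7 ± 2.97 CPM (SD, n = 3). Fatty acid uptake and binding had 5 of 16 tested genes called higher, with a median of 0.83. Slc27a1, a fatty acid transporter, rose by 1.54 in the control (SE 0.22), from 44.9 ± 9.16 to 130.2 ± 16.0 CPM (SD, n = 3), and it was the only gene of the 8 lists that was also called in the mutant libraries, with 1.30 (SE 0.22). The relatives of Fabp5 in this list, Fabp3, Fabp4 and Fabp7, rose by 2.51, 2.40 and 1.5, each from less than 4 CPM. Lpl, the lipoprotein lipase that Angptl4 inhibits, was the fifth gene called and rose by 2.49 (SE 0.72). It is named after its values were seen.

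Of the 25 genes of droplet coat, synthesis and turnover, 3 were called higher and 1 lower, beside 5.12% and 5.01% of all genes. Soat1, which esterifies cholesterol for storage in droplets, went from 88.6 ± 36.4 to 275 ± 52.4 CPM (SD, n = 3), a rise of 1.63 (SE 0.33). Bscl2, the seipin of droplet formation, rose by 0.79 and Rab18, a droplet-bound GTPase, by 1.11. Cidec, a droplet fusion protein of fat cells, fell by 2.39 on the log2 scale, from 0.704 ± 0.187 to 0.135 ± 0.0897 CPM (SD, n = 3). The list median was 0.12. Among the kinases and phosphatases of pyruvate dehydrogenase and its subunit Pdha1, 3 of 6 were called higher. They were Pdk1, Pdp1 and Pdha1, and the relative of Pdk4, Pdk1, went from 33.9 ± 11.6 to 88.9 ± 18.7 CPM (SD, n = 3).

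For the 3 remaining lists the number called was small, and the share called higher over all genes was 5.12%. None of the 6 other angiopoietin-like genes was called. Angptl2 was at 4.35 ± 2.59 and 14.9 ± 9.32 CPM (SD, n = 3), not called. Of 15 hypoxia-inducible genes, 3 were called higher (Bnip3, P4ha1 and Pfkfb3) and all 15 were above 0, with a median of 0.40. Of 13 genes induced by glucocorticoids, 1 was called, a share near that of all genes. It was Sgk1, a kinase that went from 361 ± 220 to 1011 ± 180.4 CPM (SD, n = 3). All calls in these lists are by the quasi-likelihood test of edgeR after Benjamini-Hochberg adjustment, at adjusted p-values between 0.0214 and 0.0471. In the genotype comparisons and the interaction 0 of the 119 were called. The number called higher in the control went from 25 to 0 without control unlesioned replicate 2, control 4dpl replicate 1 or control 4dpl replicate 2, to 43 without control unlesioned replicate 1, and to 3, 13, 7, 17 and 14 without control unlesioned replicate 3, control 4dpl replicate 3, mutant unlesioned replicate 3, mutant 4dpl replicate 1 or mutant 4dpl replicate 2.

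**Figure D4:**
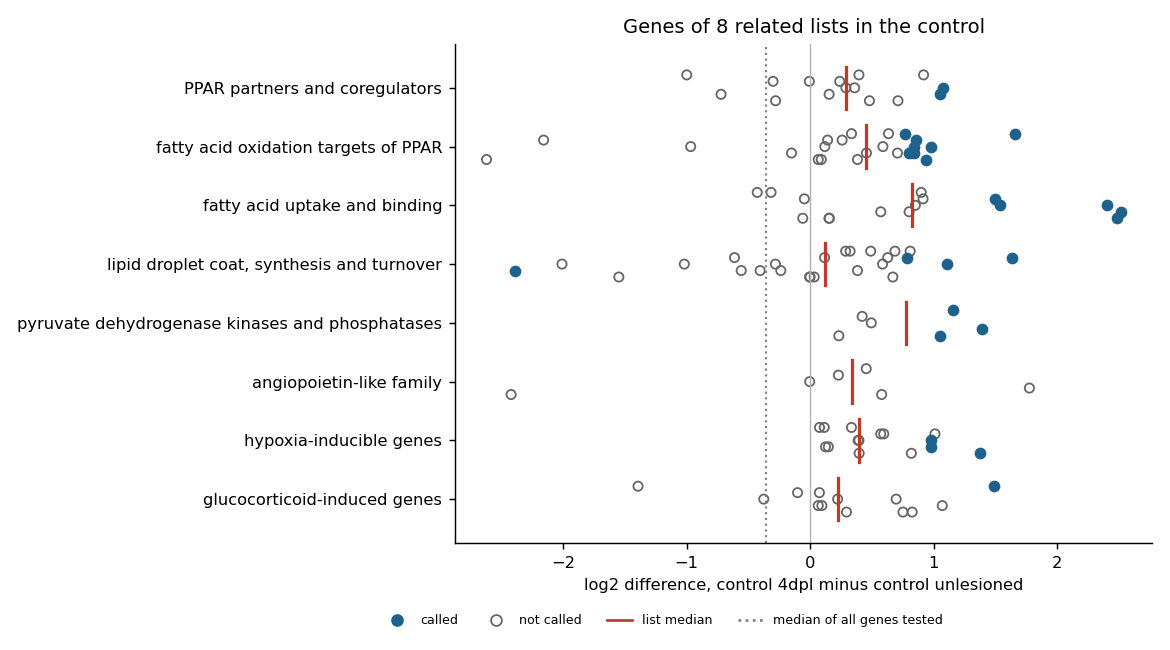
Log2 difference between control 4dpl and control unlesioned tissue (x axis) for the 119 tested genes of 8 lists, 1 point per gene, filled where called. The red line is the list median and the dotted line the median of all genes tested at -0.36; Lpl, Fabp3 and Fabp4 of the uptake list lie farthest right, at 2.40 to 2.51.

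Across the 12 libraries, the 5 genes whose log2 CPM followed Angptl4 most closely among 13615 genes compared were Blvra, Psmb6, Gngt2, Snx8 and Sh3pxd2b, with Pearson r from 0.97 to 0.99. For Fabp5 they were its pseudogene Gm6166 at 0.99, then Mrps27, Glrx3, Alg3 and Rab7b at 0.98. Angptl4 and Fabp5 had an r of 0.94 with each other and 0.81 after the group means were subtracted. Ppara had a negative r with each of the other 9 members, from -0.76 with Hilpda to -0.32 with Pdk4, but within groups r was -0.60 with Hilpda, 0.14 with Pdk4 and 0.06 with Fabp5. These values describe 12 libraries that share groups, depth and cell content.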

How the data were processed

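RNA was sequenced from 12 libraries, 3 in each of 4 groups given by the labels. The authors aligned paired-end reads and deposited 1 table of raw counts per library, made with featureCounts on Ensembl GRCm38 genes; the methods name BWA as aligner, while the submitters' processing notes name STAR, DESeq2 1.2.5 and mm10. Library totals were 34805086 to 67251544 counts.

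Counts were used as deposited. Genes were filtered with filterByExpr, which left 31109 of 54838, scaled by TMM and fitted by group means over all 12 libraries with edgeR 4.0.16 (R 4.3.3), using the quasi-likelihood test with legacy set to TRUE, 2-sided. A call needed p below 0.01 and a Benjamini-Hochberg adjusted p below 0.05 over all genes tested. Correlations used log2 CPM with a prior count of 2. The pipeline was tested on simulated data. Alternatives were RLE scaling, no filter, at least 10 counts in every library, DESeq2 1.42.0, edgeR with legacy set to FALSE, limma 3.58.1 voom, fits of the compared groups alone, an adjusted p below 0.1, replicate blocks and leaving out each library.

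The 10 members and the lists of pathway genes and cell type markers were chosen with earlier results of these data known. From each pathway list up to 4 genes with the smallest p in the control were named, and for Angptl4 and Fabp5 the 5 genes of highest r among those with a mean log2 CPM of at least 1. The sources used here do not say which libraries came from 1 mouse, so p-values measure the spread between these libraries, part of which may be technical. No 2 libraries were identical.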

Additional observations from a re-analysis of the deposited data

How the results depend on the processing

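The count of members called after lesion in the control, 4, was 2 with at least 10 counts in every library and 2 with only the groups compared, and 7 with limma voom, and it ranged from 0 to 7 when libraries were left out. In the mutant libraries the 2 called members became 6 with no filter, DESeq2, edgeR with legacy set to FALSE or an adjusted p below 0.1, 7 with limma voom and 1 with at least 10 counts in every library, with 0 to 6 when libraries were left out. Between the genotypes, DESeq2 called 2 members unlesioned, Hilpda and the mutant-chosen Angptl4, where edgeR called 0. No alternative called a member at 4dpl or in the interaction. Over all genes, the control calls went from 3150 to between 1162 and 9663 (1 to 7401 without 1 library) and the mutant calls from 42 to between 0 and 6800 (0 to 4498). Without filter 9 genes unlesioned and 4 at 4dpl differed between the genotypes, and 48 at 4dpl without control unlesioned replicate 1. Pathway genes called higher in the control, 25, were 8 to 49 under the alternatives and 0 to 43 without 1 library. Higher genes made up 50.5% of the control calls, 37.4% with DESeq2 and 37.5% with legacy set to FALSE. RLE scaling moved the median of all genes after lesion in the mutant from -0.18 to -0.32.

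Same-numbered libraries did not deviate together (r from -0.07 to 0.19 by label number and from -0.09 to -0.02 by study number), so the numbers were not taken as pairs. A replicate block, by the label number or by the number in the study's own sample names, left 6 and 5 members called in the control and 0 in the mutant libraries.

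Of 1090 repeats of the members' differences, 47 changed sign. Ppard in the control became -0.0075 with RLE scaling, -0.0073 with DESeq2, -0.23 with at least 10 counts in every library, -0.026 with only the groups compared and -0.058 with the block by study number, and it ranged from -0.089 to 0.19 without 1 library. Ppard in the mutant became 0.025 with no filter and 0.12 with the block by study number (-0.22 to 0.26 without 1 library). Pparg unlesioned between genotypes became 0.018 with at least 10 counts in every library, 0.56 with limma voom, 0.071 with the block by label number and 0.072 with that by study number (-0.35 to 0.54 without 1 library). Pdk4 at 4dpl between genotypes became -0.054 with limma voom (-0.27 to 0.32 without 1 library). In the interaction Fabp5 became 0.014 with the block by label number and Ppard 0.17 with that by study number. Without 1 library the interaction ranged from -0.35 to 0.27 for Fabp5, -0.29 to 0.19 for Ppard, -0.74 to 0.41 for Cd36, -0.82 to 0.13 for Plin2 and -0.16 to 0.94 for Hilpda. The unlesioned genotype difference ranged from -0.17 to 0.82 for Cpt1a and from -0.049 to 1.0 for Ppara, and the mutant lesion difference of Ppara from -0.51 to 0.043. The causes were not tested.

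With 3 libraries a group, the effect of depth was not tested; Fabp5 had at least 5365 counts in every library, while Ppara rested on 18 to 81 counts per library and Angptl4 on as few as 24.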
